A study of Homo sapiens with 2 samples.

Results

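The 10 genes described here are 9 members of the BCL2 family and TNFRSF10B, the gene of death receptor 5, in HEK293 cells that carry or lack the endoplasmic reticulum kinase PERK. They were chosen by gene name, and all 10 of 23614 gene symbols in the deposited tables were found once in each. HEK293 is a line derived from human embryonic kidney and kept in culture. The files hold 2 samples, labelled wild-type (WT) and PERK-KO, at the same passage range, and the methods state that both were kept for 12 h in OXPHOS medium, which contains 10 mM galactose and 1 mM pyruvate and no glucose. The PERK-KO cells were made by CRISPR with guides against EIF2AK3, the gene of PERK, and single cells were grown into clones, so a difference between the samples cannot be told apart from a difference between clones. No sample in glucose medium was analysed here. With 1 sample per genotype there is no replicate error and no test. The error given with each value is the confidence interval in the deposited tables, which covers counting and assignment error within 1 library.

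Mitochondrial apoptosis is controlled by physical binding among BCL2 family proteins. Prosurvival proteins (BCL2, BCL-XL and MCL1) hold the effectors BAX and BAK in check at the outer mitochondrial membrane. BH3-only proteins, which share just the BH3 segment with the rest of the family, bind the prosurvival proteins or the effectors and tip the balance towards pore formation and release of cytochrome c. Death receptor 5 at the cell surface binds the ligand TRAIL and starts a second route through caspase 8, which can reach mitochondria through cleavage of BID. Prolonged signalling of PERK through ATF4 and CHOP is known to raise TNFRSF10B, BBC3, PMAIP1 and BCL2L11 transcripts in stressed cells, and CHOP is known to lower BCL2. HEK293 cells carry adenoviral genes, among them a viral homologue of BCL2, and this limits the line as a model of these routes.

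The targeted gene EIF2AK3 had an FPKM (fragments per kilobase of transcript, scaled to the mapped fragments of the library) of 5.61 (5.11 to 6.12, the deposited confidence limits) in WT and 3.89 (3.44 to 4.34) in PERK-KO cells, so its transcript was lower in the sample labelled PERK-KO, the direction of the labels, but still present. FPKM does not show whether a transcript encodes a whole protein. Among 6 genes listed as markers of the HEK293 line, IRS4 stood against the label of the WT sample, with 0.121 (0.0404 to 0.202) in WT and 27.1 (25.8 to 28.4) in PERK-KO cells. NEFM had 0.662 in WT and 5.21 in PERK-KO cells, whereas NEFL had 44.9 and 33.4. SALL2 had 11.0 and 13.7, LIN28B 4.16 and 7.05, and PAX2 0.981 and 0.748. The summed FPKM of the 6 markers was 61.7 in WT and 87.3 in PERK-KO cells. Within these sums IRS4 alone went from 0.121 to 27.1. Markers of other cells, 6 in all, summed to 6.76 in WT and 6.22 in PERK-KO cells. The T-cell gene CD3E, the liver gene ALB and the brown fat gene UCP1 were listed at 0 in both samples. The fibroblast gene COL1A1 was the highest of the 6, at 4.97 and 4.62. It and the adipocyte gene ADIPOQ, at 1.68 and 1.42, were above an FPKM of 1. The blood gene PTPRC had 0.108 and 0.180. With these markers, whether the 2 samples differ by genotype alone, by clone or by the identity of the WT cells cannot be told apart, and their part in the results that follow was not tested. On main chromosomes 14151 rows reached an FPKM of 1 in WT and 14235 in PERK-KO cells, and the median half-width of their confidence intervals was 8.83% and 9.22% of the value. Read totals are not in the files, so depth is unknown.

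All 10 genes passed the minimum FPKM of 1 in both samples, with levels from BCL2 at 2.70 to BAX at 318 in WT cells. In PERK-KO cells BAX was 1.72-fold lower, the largest difference among the 10 genes, and MCL1 was 1.43-fold higher. BAK1, BID, BBC3 and PMAIP1 were 1.17- to 1.21-fold lower, BCL2L11 was 1.29-fold higher and TNFRSF10B 1.13-fold higher. BCL2 and BCL2L1 had confidence intervals that overlapped between genotypes. In bulk RNA a lower level in every cell cannot be told apart from loss of the transcript in some cells.

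Past a threshold of 1.5-fold, 0 of the 10 were higher in PERK-KO cells, beside 10.1% of 14594 expressed rows, and 1 of the 10 (BAX) was lower, beside 7.54%. That 1 call was lost when BAX was set against genes of similar transcript length (log2 ratio -0.78 as deposited, -0.41 after subtraction of their running median), and among the shortest genes, the bin that holds BAX, 17.9% were lower past this fold. By confidence intervals that did not overlap, 3 of the 10 were higher (MCL1, BCL2L11 and TNFRSF10B), beside 26.1% of all expressed rows, and 5 of the 10 were lower (BAX, BAK1, BID, BBC3 and PMAIP1), beside 18.7%. The median log2 ratio of PERK-KO to WT was -0.064 over the 10 genes and 0.040 over all expressed rows. Nothing particular to the list is read from these counts.

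The prosurvival genes came first in the order of roles. MCL1, whose protein turns over quickly and is held by NOXA and BIM, lies on chromosome 1 from 150547027 to 150552214 (GRCh37, minus strand) and has 3 exons in its canonical transcript. Its FPKM was 39.1 (37.1 to 41.1) in WT and 55.8 (53.02 to 58.6) in PERK-KO cells. The log2 ratio was 0.51 (interval 0.41 to 0.62, from both confidence intervals), at percentile 86.9 of all expressed rows. BCL2L1, which encodes BCL-XL, lies on chromosome 20 from 30252261 to 30310656 on the minus strand. It had 23.3 (21.6 to 25.0) in WT and 24.9 (23.1 to 26.7) in PERK-KO cells, and its log2 ratio of 0.093 had an interval from -0.055 to 0.24. BCL2, the founding member of the family, lies on chromosome 18 from 60790579 to 60986613 on the minus strand. It had 2.70 (2.06 to 3.35) in WT and 2.98 (2.21 to 3.74) in PERK-KO cells. Its half-widths of 23.9% and 25.8% were the widest of the 10 genes, and the log2 ratio of 0.14 had an interval from -0.37 to 0.65, which spans both directions. MCL1 was the most abundant prosurvival transcript in both samples, with 1.68 times the FPKM of BCL2L1 in WT cells (1.53 to 1.83) and 2.24 times in PERK-KO cells (2.06 to 2.45).

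The effectors were both lower in PERK-KO cells, by different amounts. BAX lies on chromosome 19 from 49458117 to 49465055 (GRCh37, plus strand), with 6 exons in a canonical transcript of 795 bases. Its FPKM was 318 (305 to 330) in WT and 185 (175 to 194) in PERK-KO cells, and the limits were far apart. The log2 ratio was -0.78 (interval -0.88 to -0.69), at percentile 3.84 of all expressed rows. BAK1, which encodes the effector BAK, lies on chromosome 6 from 33540323 to 33548070 on the minus strand and had 31.0 (29.2 to 32.8) in WT and 26.6 (24.8 to 28.3) in PERK-KO cells, at a log2 ratio of -0.22 (interval -0.35 to -0.096). BAX had 10.2 times the FPKM of BAK1 in WT cells (9.56 to 11.0) and 6.94 times in PERK-KO cells (6.39 to 7.54). This ratio within a sample does not depend on the scaling between the libraries, and its log2 change was -0.56 (interval -0.72 to -0.41). It does depend on transcript length, and the change was -0.24 after subtraction of the running median at the length of each gene.

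The stretch of 150 bases directly before the start site of BAX is shown because BAX changed most and because the stretch is dense in a short motif. It lies at chr19:48954725-48954874 on the plus strand (RefSeq window, GRCh38.p14, a later build than that of the FPKM tables). Capitals mark CACGTG, the E-box bound by factors such as MYC, USF and TFEB.
BAX: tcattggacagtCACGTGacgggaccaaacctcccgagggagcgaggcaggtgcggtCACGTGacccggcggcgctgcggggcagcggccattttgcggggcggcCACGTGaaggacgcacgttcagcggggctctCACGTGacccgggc
The motif occurred 4 times, at -138, -93, -45 and -14 bases from the start site. CACGTG reads the same on both strands, and of 35116 RefSeq windows from 250 bases before to 50 bases after a start site, 7.26% held it at least once and 5 held it 4 or more times. Of the 10 genes, 8 had such windows (13 in all, since BCL2L1 has 2 and BID 5), and BAX, BBC3 and BID held the motif. This counts genes, some with several windows, and is not on the same basis as the share of windows. MCL1 and TNFRSF10B had no window. The single sites of BBC3 (chr19:47232882-47232911, minus strand, -232 bases from its start) and BID (chr22:17774072-17774101, minus strand, in 2 of its overlapping windows) are shown for comparison, again with the E-box in capitals.
BBC3: atggggagatttCACGTGagatatagatta
BID: ttgtgtcctctcCACGTGgcctggggattc
All 3 genes with the motif had a lower FPKM in PERK-KO cells, and so did BAK1 and PMAIP1, whose windows did not hold it. On either strand, TGATGNAA, the form of the composite element bound by ATF4 and CHOP with C/EBP proteins, was in 0 of the 13 windows and in 3.62% of all windows. TTGCATCA, read from the other strand, is 1 form of the same element, and it was in 0 of the 13 windows and 0.866% of all. CCGGAAG, the core bound by GABP, was in 1 window of BCL2L1, 9 bases after the start site, and in 10.3% of all windows. A match of letters is a description and does not show binding.

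BH3-only genes were mixed. PMAIP1, which encodes NOXA and binds MCL1 by preference, was the second most abundant of the 10 genes. It lies on chromosome 18 from 57567192 to 57571538 on the plus strand and had 132 (128 to 136) in WT and 109 (106 to 113) in PERK-KO cells, at a log2 ratio of -0.27 (interval -0.34 to -0.21). BBC3, which encodes PUMA and can bind every prosurvival protein, lies on chromosome 19 from 47724079 to 47736023 on the minus strand. It had 55.0 (51.9 to 58.2) in WT and 45.8 (42.7 to 48.9) in PERK-KO cells, at a log2 ratio of -0.27 (interval -0.39 to -0.14). BID, the substrate of caspase 8, lies on chromosome 22 from 18216906 to 18257431 on the minus strand and had 16.6 (15.2 to 18.0) in WT and 13.8 (12.5 to 15.2) in PERK-KO cells, at a log2 ratio of -0.26 (interval -0.44 to -0.076), with limits that were close to touching. These genes and BAK1 were at percentiles 21.7 to 25.6 of all expressed rows. BCL2L11, which encodes BIM, was the exception. It lies on chromosome 2 from 111878491 to 111926022 on the plus strand and had 9.15 (8.16 to 10.2) in WT and 11.8 (10.5 to 13.2) in PERK-KO cells, at a log2 ratio of 0.37 (interval 0.14 to 0.60) at percentile 79.2. The FPKM of BBC3 was 6.01 times that of BCL2L11 in WT cells (5.31 to 6.80) and 3.87 times in PERK-KO cells (3.40 to 4.42).

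TNFRSF10B, on chromosome 8, had 27.9 (26.4 to 29.3) in WT and 31.6 (30.003 to 33.3) in PERK-KO cells. The log2 ratio was 0.18 (interval 0.076 to 0.29), at percentile 63.7 of all expressed rows. The gene of CHOP, DDIT3, had 58.2 (53.7 to 62.8) and 66.2 (61.1 to 71.4) in the same samples, with overlapping limits. The gene of ATF4 had 342 (326 to 358) and 506 (483 to 528). Transcripts of both factors were present in PERK-KO cells, and their proteins were not measured here.

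The order of the levels changed at 2 places. In WT cells it ran BAX, PMAIP1, BBC3, MCL1, BAK1, TNFRSF10B, BCL2L1, BID, BCL2L11 and BCL2, and only BAK1 and TNFRSF10B were neighbours whose limits overlapped. In PERK-KO cells MCL1 stood above BBC3 and TNFRSF10B above BAK1. The neighbours with overlapping limits there were BAK1 with BCL2L1 and BID with BCL2L11. FPKM is scaled by transcript length, so levels of different genes can be set beside each other, with the limit that it rests on the transcript models the authors used. A further limit is that the ratio of PERK-KO to WT rose with transcript length over all expressed genes. In both changes of order the gene that moved up has the longer transcript. MCL1 has 3950 bases and BBC3 1846, and TNFRSF10B has 3998 and BAK1 2170. Whether the order changes hold after a length subtraction was not tested.

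Summed by role, the 3 prosurvival genes had an FPKM of 65.1 (62.4 to 67.9) in WT and 83.6 (80.3 to 87.0) in PERK-KO cells. The 2 effectors had 349 (336 to 361) and 211 (202 to 221), and the 4 BH3-only genes 213 (208 to 218) and 181 (176 to 186). The ratio of effector to prosurvival transcripts was 5.35 (5.06 to 5.66) in WT and 2.52 (2.38 to 2.68) in PERK-KO cells, with a log2 change of -1.08 (interval -1.20 to -0.97). For BH3-only over prosurvival transcripts it was 3.27 (3.12 to 3.44) and 2.16 (2.06 to 2.27). BAX dominates the first ratio. It made up 50.7% of the summed FPKM of the 9 family genes in WT and 38.8% in PERK-KO cells, while MCL1 made up 6.24% and 11.7%. Without the most abundant gene of each role, which are MCL1, BAX and PMAIP1, effector over prosurvival was 1.19 (1.09 to 1.30) in WT and 0.954 (0.867 to 1.05) in PERK-KO cells, with a log2 change of -0.32 (interval -0.51 to -0.13), and BH3-only over prosurvival was 3.10 (2.86 to 3.37) and 2.57 (2.35 to 2.80). With all genes of each role and the running median over transcript length subtracted, the log2 change was -0.66 for effector over prosurvival and -0.44 for BH3-only over prosurvival.

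Pairs of genes were also compared, chosen after the values had been seen. BAX had 8.12 times the FPKM of MCL1 in WT cells (7.61 to 8.67) and 3.31 times in PERK-KO cells (3.08 to 3.55). PMAIP1 had 3.38 times the FPKM of MCL1 in WT cells (3.19 to 3.59) and 1.96 times in PERK-KO cells (1.85 to 2.08). BAX over BCL2 was 118 (92.3 to 150) and 62.0 (47.7 to 80.7), with the wide limits of BCL2. BCL2L11 over MCL1 was 0.234 (0.207 to 0.264) and 0.212 (0.187 to 0.240), and these limits overlapped. After the length subtraction the log2 changes of BAX over MCL1, PMAIP1 over MCL1 and BAX over BCL2 were -0.80, -0.58 and -0.30, against -1.30, -0.79 and -0.92 as deposited. Transcript ratios are not ratios of protein, and MCL1 and NOXA in particular are known to be set by protein turnover.

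Transcript length moved with the direction of change. The 5 genes with a ratio below 0 had canonical transcripts of 795 to 2177 bases (median 1899), and the 5 with a ratio above 0 had 2574 to 6881 bases (median 3998), so these ranges did not overlap. The same slope ran through all expressed genes. In the shortest of 5 bins by length (112 to 1720 bases, 2491 genes) the median log2 ratio was -0.25, and 17.9% of genes were lower past 1.5-fold. In the longest bin (5662 bases and over, 2490 genes) the median was 0.28, and 1.41% were lower past that fold. The running median at the length of BAX was -0.37, which left BAX -0.41 below genes of its length, at percentile 11.1 after the subtraction and no longer past 1.5-fold. For MCL1 it was 0.13, which left 0.39, at percentile 86.8. For TNFRSF10B it was 0.13, which left 0.047, and for BCL2L11 it was 0.18, which left 0.19. BAK1, BID, BBC3 and PMAIP1 stayed 0.16 to 0.21 below genes of their length on the log2 scale. BCL2 changed sign, to -0.12. After subtraction 4 of the 10 genes were above and 6 below genes of their length. Whether length sets part of the changes was not tested beyond this subtraction.

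Other genes of the apoptotic routes were taken from lists made by role. Among the 3 other prosurvival genes, BCL2L2, which encodes BCL-W, had 8.94 and 9.04, BCL2A1 had 1.52 and 0.578 with overlapping limits, and BCL2L10 was listed at 0 in both samples. Of the 5 effector-like relatives, 3 were expressed, with BCL2L13 higher in PERK-KO cells (11.1 and 14.2) and BCL2L12 lower (48.3 and 38.4). With the running median over transcript length subtracted, their log2 ratios went from 0.35 to 0.17 and from -0.33 to -0.037. Of the 8 other BH3-only and related genes, all expressed, 3 were higher and 3 lower by limits that did not overlap. Over all expressed rows the shares were 26.1% and 18.7%. Past 1.5-fold, 1 of the 8 was higher, beside 10.1%. That gene was HRK, which encodes the BH3-only protein Harakiri, with 4.66 (3.78 to 5.54) in WT and 9.91 (8.52 to 11.3) in PERK-KO cells, at a log2 ratio of 1.09. BAD, which binds BCL2 and BCL-XL, was the most abundant of this list, with 206 (194 to 217) and 150 (141 to 159). BMF was 1.32-fold lower and MOAP1 1.20-fold higher. The length subtraction moved the log2 ratio of BAD from -0.46 to -0.13. It left HRK at 0.88, BMF at -0.59 and MOAP1 at 0.28.

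On the receptor side, 6 of 10 receptors and ligands were expressed. TNFRSF10A, the gene of the other signalling TRAIL receptor, was 1.46-fold higher in PERK-KO cells, with 7.64 (6.64 to 8.65) in WT and 11.1 (9.86 to 12.4) in PERK-KO cells. FAS was 1.74-fold lower, with 9.15 (8.22 to 10.1) and 5.26 (4.52 to 5.99). Past 1.5-fold, 1 of the 6 was lower, beside 7.54% of all expressed rows, and 0 were higher, beside 10.1%. FAS has no transcript length, so the length subtraction could not be made for it. The subtraction left TNFRSF10A at a log2 ratio of 0.54. The TRAIL gene TNFSF10 was under 1 in both samples, at 0.495 and 0.557. Of the 7 adaptors and initiators, TRAF2 was 1.36-fold lower, and the other 6, including FADD at 40.9 in both samples and CASP8 at 11.1 and 9.50, had overlapping limits. Over all expressed rows, 18.7% were lower and 26.1% higher by limits that did not overlap. The length subtraction moved the log2 ratio of TRAF2 from -0.45 to -0.41.

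Downstream of the mitochondrial pore, 0 of 11 apoptosome and caspase genes were past 1.5-fold, beside 10.1% higher and 7.54% lower of all expressed rows. By limits that did not overlap 2 were higher and 2 lower, beside 26.1% and 18.7%, and 7 had overlapping limits. CYCS, the gene of cytochrome c, had 39.1 (37.9 to 40.3) in WT and 35.3 (34.1 to 36.5) in PERK-KO cells. APAF1, the scaffold of the apoptosome, was 1.32-fold higher, AIFM1 1.18-fold higher and DIABLO 1.23-fold lower. After the length subtraction the log2 ratio of APAF1 went from 0.40 to 0.13 and that of DIABLO from -0.30 to -0.11. AIFM1 went from 0.24 to 0.29 and CYCS from -0.15 to -0.32. Among 5 expressed inhibitors of apoptosis, BIRC6 was 1.76-fold higher (3.10 and 5.44), XIAP 1.19-fold higher, and BIRC5, which encodes survivin, 1.29-fold lower. The length subtraction took the log2 ratio of BIRC6 from 0.81 to 0.45, no longer past 1.5-fold, and left BIRC5 at -0.37. The direction of XIAP turned with the length subtraction, from a log2 ratio of 0.25 to -0.065. XIAP was the middle gene of this list before and after, so these values are also the list medians. Of 7 partners at the mitochondrial and ER membranes, 4 were lower and 0 higher by limits that did not overlap, among them BCAP31 (1.23-fold) and TMBIM6 (1.17-fold), beside 18.7% lower and 26.1% higher of all expressed rows. The length subtraction moved the median of this list from -0.16 to -0.057 and BCAP31 from -0.30 to -0.057. It left TMBIM6 at -0.23. The remaining genes called lower went from -0.23 to -0.16 (MTCH1) and from -0.16 to -0.14 (MTCH2). The medians of these lists lay between -0.69 and 0.25 on the log2 scale, beside 0.040 for all expressed rows. The lowest, -0.69, rests on the 2 expressed genes of the other prosurvival list. These are BCL2L2 at 0.016 and BCL2A1 at -1.39, both with overlapping limits.

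The unfolded protein response feeds the stress arm of these routes. All 12 genes of the IRE1 and ATF6 list were higher by limits that did not overlap, beside 26.1% of all expressed rows. The median log2 ratio was 1.30, and 11 of the 12 were higher past 1.5-fold, beside 10.1% of all expressed rows. HYOU1, the gene of an ER chaperone, had 25.5 (24.1 to 26.9) in WT and 133 (128 to 138) in PERK-KO, and HERPUD1, which acts in ER-associated degradation, had 25.9 (23.9 to 27.8) and 114 (108 to 120). HSPA5, the gene of the chaperone BiP, had 161 (158 to 164) in WT and 679 (672 to 685) in PERK-KO cells. Of the 13 genes of the CHOP branch, 9 were higher and 1 lower by limits that did not overlap, beside 26.1% and 18.7% of all expressed rows, with a median of 0.56. ASNS, the asparagine synthetase gene, was 2.42-fold higher, CHAC1 2.11-fold higher and NUPR1 1.98-fold lower. Of the 4 genes among the 10 that CHOP or ATF4 is known to raise, TNFRSF10B and BCL2L11 were higher in PERK-KO cells and BBC3 and PMAIP1 were lower.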

How the data were processed

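Polyadenylated RNA of 2 samples of HEK293 cells (1 WT, 1 PERK-KO) was sequenced. By the submitters' processing notes the tools were TopHat2 2.0.13 and Cufflinks 2.2.1 and the build hg19 (GRCh37), and the methods also name Cuffdiff. The authors deposited, per gene, FPKM with lower and upper confidence limits. The annotation version is not given in the sources used here. FPKM values rest on transcript models, so isoform assignment affects them, and no read counts or depths are given.

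Values were used as deposited. The log2 ratio of PERK-KO over WT was taken without a pseudocount, and its interval from the relative half-widths of both deposited intervals. Expressed rows (14594 of 23972 on main chromosomes) had an FPKM of at least 1 in either sample. With 1 sample per genotype no test was run. Start positions were converted to count from 1. Transcript lengths came from canonical transcripts of GENCODE 44 on GRCh37, found for 85.3% of expressed rows. The running median used the 501 genes nearest in length. At the ends of the range it used the 501 shortest or longest genes as a block, and BIRC6 and HUWE1 fall in the longest. Calculations were tested on simulated data. The 10 genes and the lists were chosen with earlier results of these data known. Genes outside the 10 were named as at most the 2 highest and 2 lowest ratios of each list with limits that do not overlap, plus DDIT3, ATF4, CYCS, HSPA5 and EIF2AK3. BCL2L2, BCL2A1, BCL2L10, TNFSF10, FADD, CASP8, CD3E, ALB and UCP1 are outside that rule and were named after their values had been seen. The same holds for SALL2, LIN28B, PAX2, COL1A1, ADIPOQ, PTPRC, MTCH1 and MTCH2. No gene was named for likeness of pattern, since 2 samples give 1 ratio per gene. A list of genes with a withheld member is not reported here. Python 3.11.15, numpy 2.4.6, pandas 2.3.3 and matplotlib 3.10.9 were used.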

Additional observations from a re-analysis of the deposited data

How the results depend on the processing

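The alternatives were other pseudocounts, scalings, filters, folds, summing of rows with the same symbol and subtraction of the running median over transcript length. Over 10 genes and 6 alternatives, 56 of 60 log2 ratios stayed within their interval, 4 moved beyond it (all under the length subtraction, for MCL1, BAX, PMAIP1 and TNFRSF10B) and 0 of those with separate limits reversed. Setting the median or the 75th percentiles equal shifted log2 ratios by 0.040 or 0.026. The count of genes more than 1.5-fold higher, 0, became 2 past a log2 ratio of 0.32. The count lower, 1, became 0 at 2-fold and, with an alternative added after seeing the data, 0 with the length subtraction. The shares of all expressed rows past a log2 ratio of 0.32 and past 2-fold were not computed, so nothing is read from the counts there. The share of all genes past 1.5-fold was 6.47% higher with a pseudocount of 1 and, with the length subtraction, 6.22% higher and 4.96% lower. Without the most abundant of the 10 genes in each role, the log2 change of effector over prosurvival was -0.32, against -1.08 with them. For BH3-only over prosurvival it was -0.27 against -0.60, and for BH3-only over effector 0.045 against 0.49. With the length subtraction, also added after seeing the data, the changes were -0.66, -0.44 and 0.22, in that order. No paired analysis was possible because each genotype has 1 sample, and for the same reason no replicate could be left out. The precision of BCL2 was limited by its low FPKM.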

Other observations

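Of 5 genes that act on the stability of MCL1 and its partners, 4 were higher and 0 lower in PERK-KO cells by confidence limits that stood apart, beside 26.1% and 18.7% of all expressed rows. The median log2 ratio of the list was 0.21. The gene at that median had no transcript length. The remaining genes had a median of -0.040 after subtraction of the running median over transcript length, so these medians cover different genes. HUWE1, a ubiquitin ligase for which MCL1 is a known substrate, was 1.79-fold higher in PERK-KO cells, with 14.1 (13.6 to 14.5) and 25.1 (24.5 to 25.7). Its canonical transcript is 14720 bases long, and the running median at that length was 0.36 on the log2 scale, against its own log2 ratio of 0.84. BTRC was 1.24-fold higher, with a log2 ratio of 0.31 that was 0.091 after the subtraction. Of 3 FOXO factor genes, FOXO3, known to raise BCL2L11 and BBC3, was 1.28-fold higher, with 10.3 (9.64 to 10.9) and 13.1 (12.4 to 13.9), and the other 2 had overlapping limits. The log2 ratio of FOXO3 was 0.36, of which 0.28 was the running median at its length, which left 0.074.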
